A study of Homo sapiens with 12 samples.

Results

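Transcripts of the circadian clock were measured by RNA-seq in a pair of gastric cancer cell lines whose level of ZNF165 had been lowered or raised. Of the 50868 gene identifiers in the count table, 10 are described here: CLOCK, BMAL1 (older name ARNTL), CIPC, PER1, PER2, PER3, CRY1, CRY2, NR1D1 and NR1D2, each found by its symbol. CIPC was added to the set because it was lower with ZNF165 overexpression, so its value in that comparison is a description without a test. The 12 libraries fall into 4 groups of 3. MKN28 cells with the control lentivirus (LV-Control, genotype WT) were set against MKN28 cells labelled as a ZNF165 knockdown, made with a lentiviral siRNA construct. MKN45 cells with the same LV-Control (genotype WT) were set against MKN45 cells with LV-ZNF165, labelled as an overexpression. The descriptions of knockdown replicates 2 and 3 name siRNA to ZNF166 and ZNF167, while the genotype of all 3 gives ZNF165. All groups therefore carried a lentivirus. Promoters, culture times, hours of harvest, any synchronisation of the cells and whether a line was 1 clone are not given in the labels. Both are established lines labelled as gastric cancer cells, and MKN28 is listed in registers of misidentified lines as a derivative of another gastric line, MKN74. Whether replicates came from separate cultures is not stated, so p-values measure only the library-to-library spread, which may be technical.

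The mammalian clock is a feedback loop of transcription. CLOCK and BMAL1 form a dimer that binds E-box sequences and drives the PER and CRY genes as well as NR1D1 and NR1D2. PER and CRY proteins then enter the nucleus and block the dimer, while the products of NR1D1 and NR1D2 (REV-ERB alpha and beta) repress BMAL1 through ROR elements. CIPC is a further inhibitor that binds CLOCK. PER1 and PER2 also respond directly to cAMP, stress and glucocorticoids, and epithelia of the digestive tract run such clocks.

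The promoters of the genes were searched for these inputs. Windows of 250 bases before each annotated start were taken from RefSeq (GRCh38.p14), 15 windows for all 10 genes. Both strands were searched for the E-box CACGTG, the E-prime-box CACGTT, the D-boxes TTATGTAA and TTACGTAA (bound by DBP, TEF, HLF and NFIL3), the core of a ROR element, AGGTCA, and the cAMP response element TGACGTCA. None of these motifs contains another. E-boxes were found in 3 of the 15 windows (6.3% of 35093 windows of all genes), E-prime-boxes in 5 (4.6%), D-boxes in 2 (0.9%), ROR cores in 3 (12.1%) and the cAMP element in 0 (1.6%). The 3 windows with an E-box belong to PER1, CIPC and NR1D2. A match is a description of letters, not a measured binding site. The sequences shown are those of the genes whose E-boxes or D-boxes were found, with NR1D1 beside its paralog, and capitals mark the motifs. The PER1 window (chr17:8152436-8152654, minus strand) has its E-box 173 bases before the start and a ROR core on the opposite strand 144 bases before it. NR1D2 (chr3:23945871-23946120, plus strand, before the second of its annotated starts) has E-boxes 155 and 105 bases and a D-box 194 bases before that start. PER3 (chr1:7784041-7784290, plus strand) has a D-box 177 bases before its start. NR1D1 (chr17:40100726-40100839, minus strand) has an E-prime-box 168 bases before its start. The E-box of CIPC (chr14:77098180-77098205, plus strand), 68 bases before its RefSeq start, lies in an exon of a longer GENCODE transcript and is shown with 10 bases on each side. PER1 and NR1D1 are shown only as far as the first annotated exon base.
PER1: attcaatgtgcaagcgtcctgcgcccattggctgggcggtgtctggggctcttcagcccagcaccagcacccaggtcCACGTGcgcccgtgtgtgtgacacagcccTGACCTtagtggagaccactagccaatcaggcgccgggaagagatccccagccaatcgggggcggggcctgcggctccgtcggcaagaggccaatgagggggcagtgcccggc
NR1D2: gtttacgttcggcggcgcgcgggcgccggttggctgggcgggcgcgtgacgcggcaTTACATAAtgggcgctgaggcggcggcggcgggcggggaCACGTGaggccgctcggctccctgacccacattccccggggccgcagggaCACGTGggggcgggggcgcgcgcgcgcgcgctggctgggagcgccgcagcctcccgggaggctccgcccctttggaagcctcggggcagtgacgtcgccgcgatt
PER3: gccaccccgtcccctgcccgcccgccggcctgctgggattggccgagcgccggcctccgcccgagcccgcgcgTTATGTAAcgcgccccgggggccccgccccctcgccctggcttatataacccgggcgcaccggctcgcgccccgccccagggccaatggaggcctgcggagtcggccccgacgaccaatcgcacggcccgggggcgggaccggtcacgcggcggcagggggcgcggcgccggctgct
NR1D1: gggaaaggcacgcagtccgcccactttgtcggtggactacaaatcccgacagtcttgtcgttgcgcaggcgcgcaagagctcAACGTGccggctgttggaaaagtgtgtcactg
CIPC: cgagtcgggtCACGTGgctggcgaaa

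Libraries held from 12075813 to 19548445 counts, so that 3 counts, the limit that a count of 0 allows, corresponded to between 0.153 and 0.248 CPM, the count scaled to library size. ZNF165, the targeted gene, was at 10.8, 7.89 and 12.4 CPM in MKN28 controls and 4.75, 3.95 and 2.52 in knockdown libraries, and at 8.72, 10.3 and 17.6 in MKN45 controls against 107, 96.8 and 108 with overexpression. Knockdown libraries differed from their controls in composition: Spearman's rho of CPM with transcript length, across genes, was 0.304 to 0.365 in MKN28 controls and 0.079 to 0.152 in the knockdown, and with GC content −0.102 to 0.066 against 0.039 to 0.285. Knockdown replicate 1 stood apart from replicates 2 and 3, as in CLDN4, a tight-junction gene, with 56 counts against 40987 and 21578. MKN45 control replicate 2 also stood apart from its group, with a rho of 0.246 with length (0.313 to 0.349 in the other controls) and of 0.117 with GC content (−0.056 to −0.039). All 6 epithelial markers were detected in every library. Their summed level was 7143 to 7721 CPM in MKN28 controls and 14455 to 39275 in the knockdown. It was 4903 to 9017 in MKN45 controls and 4475 to 7349 with overexpression. The keratins KRT8, KRT18 and KRT19 carried most of this sum. CDH1 was lower in the knockdown, with 1460, 772 and 416 counts against 6960, 8322 and 5993 in MKN28 controls. EPCAM had 12554, 1940 and 1815 counts against 10763, 8675 and 9688. The 4 leukocyte markers summed to 0.17 to 0.47 CPM in MKN28 controls, 2.12 to 3.76 in the knockdown, where CD14 carried most of it, and at most 0.36 in MKN45, with PTPRC and CD3E at 3 counts or fewer in every library. Endothelial markers summed to at most 2.1 CPM and the fibroblast sum of 18.5 to 122 CPM was nearly all COL1A1, with DCN at 2 counts or fewer. In such bulk samples fewer cells of a type and less RNA per cell cannot be told apart.

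The knockdown comparison asks which clock genes differ in MKN28 cells with less ZNF165. Transcripts of both activators passed as lower, and those of the repressing genes were mixed. CLOCK and BMAL1 fell, PER1, CRY2 and NR1D1 rose, and PER2, PER3, CRY1, CIPC and NR1D2 did not pass. That is 5 of 10 (edgeR quasi-likelihood test, adjusted p under 0.05 after Benjamini-Hochberg over all genes tested), where 40.8% of all 14939 genes tested passed, 19.2% higher and 21.6% lower. The members' count is close to that background. Their median log2 fold change was −0.80, beside −0.20 for all genes. At 9 of the 10 genes, CRY1 being the exception, the knockdown libraries did not overlap the controls, 4 of them higher and 5 lower. The same held for 53.8% of all genes, 23.5% higher and 30.3% lower.

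CLOCK, a histone acetyltransferase and the DNA-binding partner of BMAL1, had 1054, 466 and 1239 counts in controls and 64, 21 and 8 in knockdown replicates 1 to 3. In CPM these were 43.6, 19.8 and 53.7 against 4.11, 2.08 and 0.916. Every knockdown library lay below every control, and replicate 3 was the lowest. The level fell from 39.0 ± 17.4 to 2.37 ± 1.62 CPM (SD, n = 3 libraries), 6.07% of control (log2 fold change −4.02, SE 0.71, edgeR adjusted p = 0.00396). CLOCK lay at the 3rd percentile of all fold changes in this comparison. BMAL1, its partner, had 496, 318 and 450 counts against 83, 15 and 11. In CPM these were 20.5, 13.5 and 19.5 against 5.33, 1.48 and 1.26. Knockdown replicate 1 retained most, but all 3 lay below the controls. The mean fell from 17.8 ± 3.8 to 2.69 ± 2.29 CPM, 15.1% of control (log2 fold change −2.70, SE 0.67, edgeR adjusted p = 0.0109).

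CIPC, the CLOCK inhibitor, was at 11.6, 6.87 and 4.46 CPM in controls and 1.29, 3.36 and 2.75 in the knockdown. The groups did not overlap, with replicate 1 lowest here although it was highest for BMAL1. The log2 fold change was −1.64 (SE 0.61), which did not pass (edgeR adjusted p = 0.0529).

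Of the repressing arm, PER1 and CRY2 rose and PER2, PER3 and CRY1 did not pass. PER1, the period gene with immediate responses to signals, had 762, 1927 and 471 counts in controls and 1770, 3398 and 1875 in the knockdown. In CPM these were 31.5, 81.7 and 20.4 against 114, 336 and 215. Replicate 2 was the highest library of each group, and the groups did not overlap. The mean rose from 44.6 ± 32.7 to 221 ± 111 CPM (log2 fold change 2.31, SE 0.63, edgeR adjusted p = 0.0163). PER2, a core period gene, was at 10.7, 6.7 and 11.4 CPM against 20.8, 16.4 and 17.2. All knockdown libraries lay above the controls, but the log2 fold change of 0.92 (SE 0.49) did not pass (edgeR adjusted p = 0.153). PER3, the period gene least needed for rhythm, was at 48.7, 25.7 and 37.6 CPM against 22.0, 7.31 and 7.44. It lay lower in every knockdown library, by −1.60 on the log2 scale (SE 0.59), just short of the threshold (edgeR adjusted p = 0.0502).

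CRY2, a cryptochrome and direct inhibitor of the dimer, had 542, 865 and 670 counts in controls and 1632, 1717 and 1353 in the knockdown. In CPM these were 22.4, 36.7 and 29.04 against 105, 170 and 155. The mean rose from 29.4 ± 7.14 to 143 ± 34.0 CPM, 487% of control (log2 fold change 2.28, SE 0.46, edgeR adjusted p = 0.00533). Its paralog CRY1, a strong repressor of the dimer, was at 22.7, 15.4 and 31.3 CPM in controls and 48.2, 9.68 and 8.36 in the knockdown. Knockdown replicate 1 lay above all controls and replicates 2 and 3 below them, so that the mean change of −0.06 (SE 0.70, edgeR adjusted p = 0.950) averages libraries of opposite direction. Without knockdown replicate 1 the log2 fold change of CRY1 was −1.23 (edgeR adjusted p = 0.0226).

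Of the REV-ERB genes, which repress BMAL1, NR1D1 rose and NR1D2 did not pass. NR1D1 had 431, 858 and 205 counts in controls and 823, 2205 and 1103 in the knockdown. In CPM these were 17.8, 36.4 and 8.88 against 52.9, 218 and 126. The groups did not overlap, with replicate 2 again the highest of each. The mean rose from 21.0 ± 14.0 to 132 ± 82.7 CPM (log2 fold change 2.65, SE 0.68, edgeR adjusted p = 0.0124). NR1D2 was at 73.2, 48.7 and 60.6 CPM against 41.9, 11.7 and 8.70. It lay lower in all knockdown libraries, and replicate 1 was closest to the controls. Its log2 fold change of −1.55 (SE 0.63) did not pass (edgeR adjusted p = 0.0703). NR1D1 overlaps THRA, a thyroid hormone receptor gene on the opposite strand, and without strand information reads of the shared part cannot be told apart. THRA itself had 583, 997 and 331 counts in controls and 167, 229 and 170 in the knockdown. These are raw counts, and scaled levels of THRA were not compared.

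**Figure D1:**
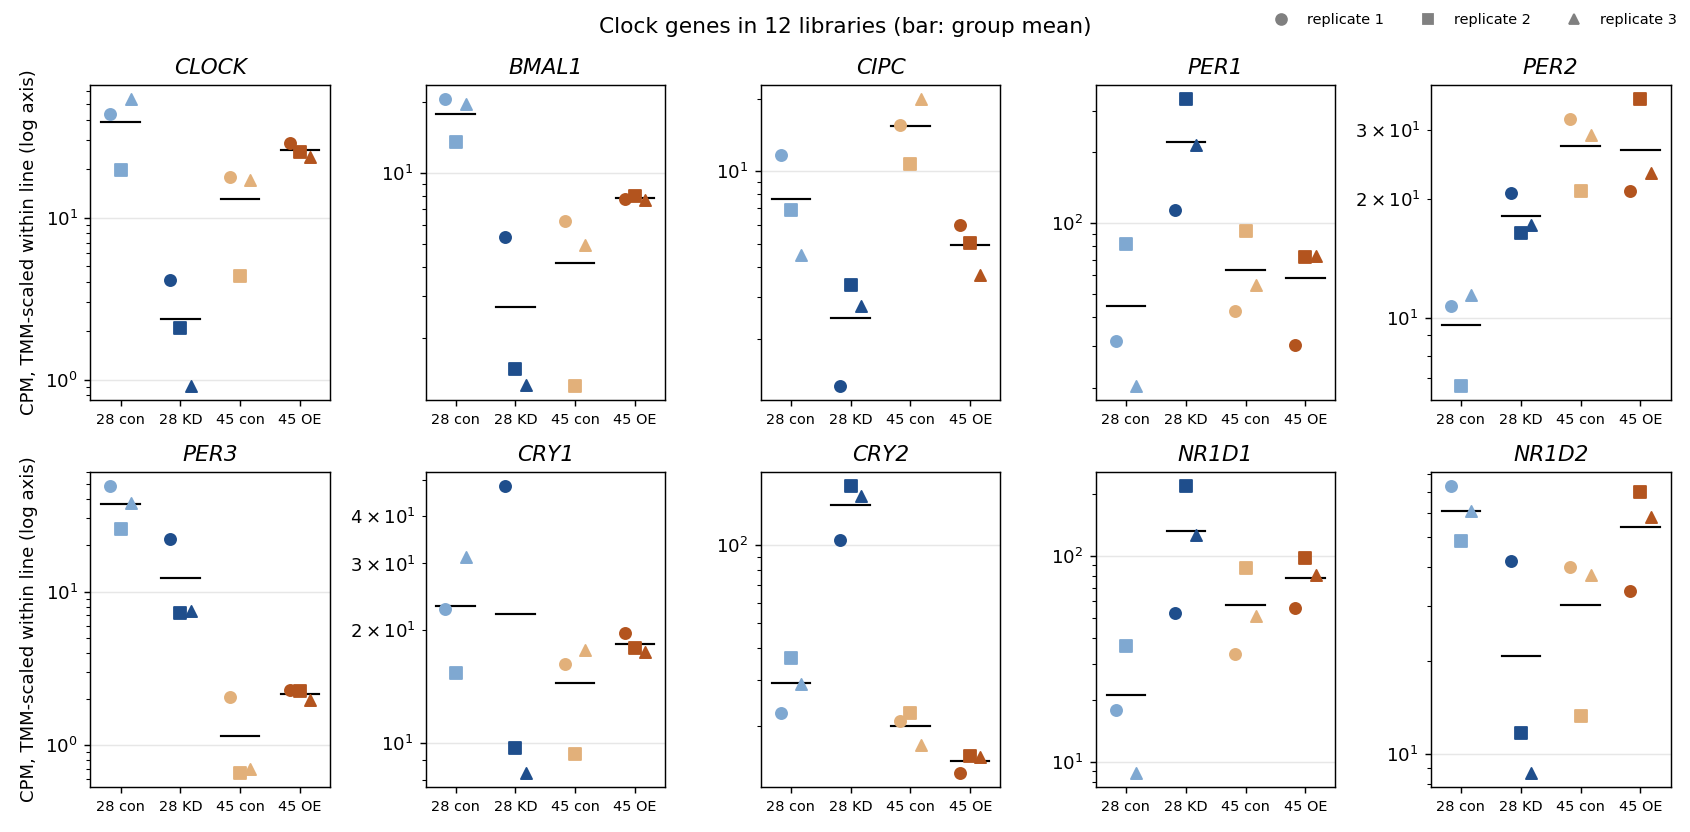
Level of each clock gene in the 12 libraries (CPM on a log axis, scaled within each cell line), by group: MKN28 control and knockdown (28 con, 28 KD), MKN45 control and overexpression (45 con, 45 OE). Marker shapes are replicate numbers and bars are group means. CLOCK lies at 19.8 to 53.7 CPM in MKN28 controls and at 0.916 to 4.11 in the knockdown, and CRY1 splits the knockdown group.

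Calls of the knockdown comparison differed in how many libraries they needed. CLOCK and CRY2 passed in each of 15 alternatives and BMAL1 in 14, failing with replicate 1 as the lone knockdown library (edgeR adjusted p = 0.0584), a fit in which it is assumed to vary like the controls. PER1 and NR1D1 passed in 11 of 15. Their calls ended with replicate 1 as the lone knockdown library (log2 fold change 1.36 and 1.34), with library totals as the only scaling (1.41 and 1.71), and when MKN28 control replicate 1 (2.09 and 2.52) or replicate 3 (1.94 and 2.26) was left out. Over these the edgeR adjusted p ranged from 0.0550 to 0.148. Leaving out control replicate 1 or 3 left 3 members that passed (17.3% and 20.6% of all genes), and leaving out knockdown replicate 1 gave 8 (65.9% of all genes). With library totals alone the median of all genes was −0.92, so PER1 and NR1D1 lay further above that median than above 0.

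The members differ in transcript length and GC content, the properties along which the knockdown libraries differed from the controls. The longest transcript of CLOCK is 10.304 kb with 37.2% GC, that of BMAL1 3.862 kb with 43.0%, and that of NR1D2 5.258 kb with 38.5%. PER1 is at 4.707 kb and 62.7% GC, CRY2 at 4.204 kb and 57.0%, and NR1D1 at 2.772 kb and 59.5%, where the median of all genes with a count is 2.153 kb and 48.6%. The 3 genes that rose have the highest GC content of the 10, and both that fell lie under that median. When the trend of each library with length and GC content was removed before the fit, the calls of CLOCK (log2 fold change −1.33, edgeR adjusted p = 0.0107), BMAL1 (−1.64, adjusted p = 0.00551), PER1 (1.95, adjusted p = 0.00361), CRY2 (1.89, adjusted p = 0.00157) and NR1D1 (1.497, adjusted p = 0.0117) held, with CLOCK at a much smaller size. PER2 (1.48, edgeR adjusted p = 0.00997) and CRY1 (1.30, adjusted p = 0.00955) then passed as higher, and CRY1 had changed sign. NR1D2 also changed sign without passing (0.25, edgeR adjusted p = 0.468), and CIPC (−0.37, adjusted p = 0.669) and PER3 (−0.28, adjusted p = 0.490) moved towards 0. In trend-free CPM, CLOCK was at 16.0, 12.3 and 16.9 in controls and 5.61, 7.56 and 4.64 in the knockdown. CRY1 was at 12.8, 12.6 and 14.7 against 43.1, 25.5 and 29.5, with all knockdown libraries now above the controls. So 7 of 10 members passed in this fit, 5 higher and 2 lower, where 41.4% of all genes passed.

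**Figure D2:**
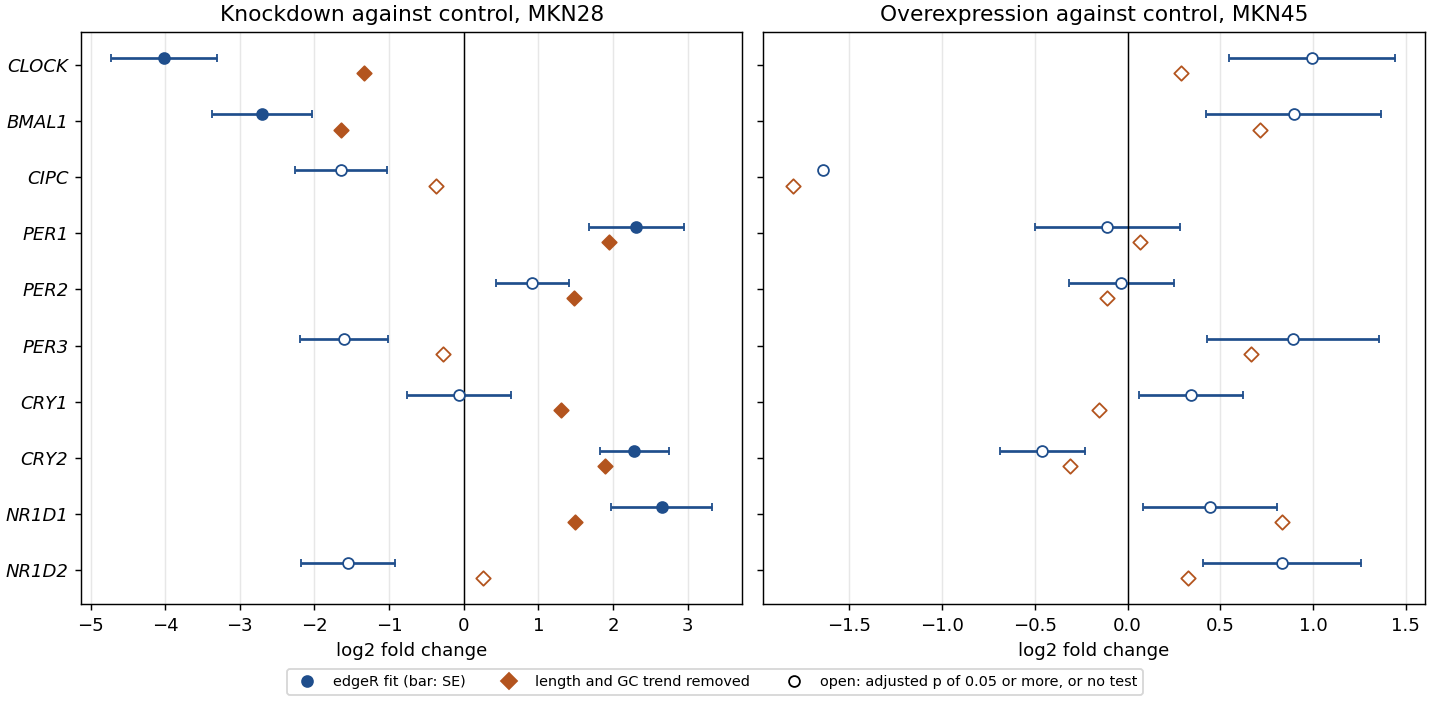
Log2 fold changes of the clock genes in the knockdown (MKN28, left) and the overexpression (MKN45, right), on axes of different range. Circles with SE bars are the edgeR fit, diamonds the fit with the length and GC trend removed, and filled symbols passed an adjusted p of 0.05. CLOCK moves from −4.02 to −1.33 and CRY1 from −0.06 to 1.30 in the knockdown, and no circle or diamond is filled in the overexpression.

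The overexpression comparison asks which clock genes differ in MKN45 cells with more ZNF165. None of the 9 members open to a test passed (edgeR quasi-likelihood test), where 1.13% of all 15833 genes tested did, 0.935% higher and 0.196% lower. At an unadjusted p under 0.05 the count was also 0, where 26.8% of all genes lay under it, and DESeq2 gave 0 where it called 11.6% of all genes. The count was also 0 without control replicate 2, where 8.26% of all genes passed, and after removal of the length and GC trend, where 7.09% did. In several other fits hardly any gene passed (3 in the fit of all 12 libraries), so a count of 0 there says nothing of stability. The median of the 9 members was 0.44 beside −0.002 for all genes. Groups did not overlap at CLOCK, BMAL1 and CRY2, 3 of 9 (2 higher, 1 lower), and at 38.1% of all genes (19.4% higher, 18.7% lower).

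CIPC, the gene chosen on this comparison, had 278, 145 and 312 counts in MKN45 controls and 118, 103 and 66 in the overexpression. In CPM these were 15.5, 10.7 and 19.9 against 5.99, 5.04 and 3.72. All overexpression libraries lay below all controls. The mean was 15.4 ± 4.59 against 4.92 ± 1.14 CPM, 32% of control (log2 fold change −1.64). Over 14 alternatives the value lay between −1.85 and −1.42. These alternatives refit libraries on which CIPC was chosen, so neither the missing overlap nor the range is support for the fall. In the knockdown, a comparison with no library in common, CIPC was 32.2% of control and did not pass. CIPC overlaps TMEM63C (3 to 159 counts per library) and a read-through transcript (0 to 2 counts). How reads of shared parts were assigned is not known, so these counts do not show how many CIPC reads came from either.

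The activators were on the higher side without passing. CLOCK was at 17.8, 4.35 and 16.9 CPM in MKN45 controls and 28.96, 25.5 and 23.6 with overexpression. BMAL1 was at 6.26, 1.25 and 4.97 against 7.77, 7.98 and 7.66. In both genes control replicate 2 was far below the other controls, and the overexpression libraries lay close together above them all. The log2 fold changes were 0.99 (SE 0.45, edgeR adjusted p = 0.191) for CLOCK and 0.90 (SE 0.47, adjusted p = 0.250) for BMAL1. Without control replicate 2 they were 0.58 and 0.47 (edgeR adjusted p = 0.0703 and 0.207), and after removal of the length and GC trend 0.29 and 0.71.

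Among the repressors, PER1 was at 42.3, 92.3 and 54.5 CPM against 30.5, 72.1 and 72.7, with overlapping groups. PER2 also overlapped, at 32.04, 21.0 and 29.2 against 21.0, 36.0 and 23.4. PER3 was at the bottom of its range in this line, with 37, 9 and 11 counts in controls and 45, 46 and 35 with overexpression. The log2 fold changes were −0.11, −0.03 and 0.89 (edgeR adjusted p = 0.877, 0.951 and 0.244). CRY1 was at 16.2, 9.37 and 17.7 CPM against 19.7, 17.9 and 17.4, and CRY2 at 20.9, 22.5 and 16.9 against 13.2, 15.4 and 15.2. CRY2 was the only repressor whose groups did not overlap, at −0.46 (SE 0.23, edgeR adjusted p = 0.227). NR1D1 was at 33.5, 87.6 and 51.2 CPM against 55.8, 97.4 and 81.0, and NR1D2 at 39.98, 13.2 and 37.6 against 33.5, 70.2 and 58.3. Their log2 fold changes were 0.44 and 0.83 (edgeR adjusted p = 0.445 and 0.241), and for both genes the control replicate 2 was the extreme of its group, high for NR1D1 and low for NR1D2.

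A fit of all 12 libraries tested the difference between the overexpression in MKN45 and the knockdown in MKN28, each taken as the log2 effect of more against less ZNF165. Each line had 1 kind of manipulation, so line and manipulation cannot be told apart. ZNF165 itself passed this test (1.67, edgeR adjusted p = 0.0421), with a 2.76-fold change in MKN28 and an 8.50-fold change in MKN45. The test shares its libraries with both comparisons above. Of the 9 members open to this test, 3 passed, where 17.5% of 17266 genes did (8.09% with a positive and 9.38% with a negative difference). For CLOCK the effect in MKN45 minus that in MKN28 was −2.96 (SE 0.81, edgeR adjusted p = 0.0248): CLOCK was much higher in MKN28 controls than in the knockdown, and less so with overexpression than in MKN45 controls. For CRY2 the difference was 1.86 (SE 0.48, edgeR adjusted p = 0.0200) and for NR1D1 3.11 (SE 0.83, adjusted p = 0.0233). With more ZNF165, CRY2 was lower in both lines, in MKN45 without passing, while NR1D1 was lower in MKN28 and at 0.44, not passing, in MKN45. PER1, at 2.21, did not pass (edgeR adjusted p = 0.0684). Leaving out libraries changed these calls. The count was 0 without MKN28 control replicate 1, MKN45 control replicate 1, MKN45 control replicate 3, overexpression replicate 2 or overexpression replicate 3, fits in which 6.51% to 7.94% of all genes passed. It was 1 without MKN28 control replicate 3 or knockdown replicate 2 (10% and 10.9% of all genes) and 6 without knockdown replicate 1 (46.1%). With replicate 1 as the lone knockdown library it was 0 (6.48%).

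Ratios between clock genes within a library do not depend on scaling between libraries, but they do move with composition. They oppose genes that the loop ties together. NR1D1 to BMAL1, a repressor and its target, had log2 count ratios of −0.20, 1.43 and −1.13 in MKN28 controls and 3.30, 7.15 and 6.58 in the knockdown. Every knockdown ratio lay above every control. The means differed by 5.65 (exact two-sided permutation test, p = 0.1, the smallest that 3 against 3 allows; adjusted p = 0.26 over 13 such tests). NR1D1 to NR1D2 went from −2.04, −0.42 and −2.77 to 0.34, 4.22 and 3.85, a difference of 4.54 with the same p. The paralogs PER3 and PER2 went the other way, from 2.19, 1.94 and 1.72 to 0.08, −1.16 and −1.20. BMAL1 to CLOCK shifted from −1.09, −0.55 and −1.46 to 0.37, −0.47 and 0.44 in log2. These 4 of 7 ratios did not overlap between knockdown and control. The other three, PER1 to PER2, CRY1 to CRY2 and CIPC to CLOCK, overlapped and gave an exact permutation p = 0.2 each. All 7 did not overlap without MKN28 control replicate 2, and likewise without knockdown replicate 1. The share of other gene pairs whose ratios do not overlap was not computed in either line. Among single genes 53.8% did not overlap in the knockdown, so these counts are not a result about clock genes. In the fit after removal of the length and GC trend, log2 fold changes were 1.497 for NR1D1, 0.25 for NR1D2 and −1.64 for BMAL1. BMAL1 lay lower than CLOCK there (−1.64 and −1.33), the opposite order to the count ratio.

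In MKN45, CRY1 to CRY2 was the one tested ratio without overlap, at −0.36, −1.26 and 0.07 in controls and 0.57, 0.22 and 0.19 with overexpression (difference 0.85, exact two-sided permutation test, p = 0.1, adjusted p = 0.26). CIPC to CLOCK, given as a description, was at −0.19, 1.29 and 0.23 against −2.27, −2.33 and −2.65. NR1D1 to BMAL1 was at 2.41, 6.08 and 3.36 in controls and 2.84, 3.61 and 3.40 with overexpression. The control replicate 2 with its value of 6.08 lay near knockdown replicates 2 and 3 of MKN28. It is also the MKN45 library with the lowest correlation with length and the highest with GC content. The part of composition in this ratio was not tested. The number of ratios without overlap was 2 without MKN45 control replicate 1, MKN45 control replicate 2 or overexpression replicate 2.

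**Figure D3:**
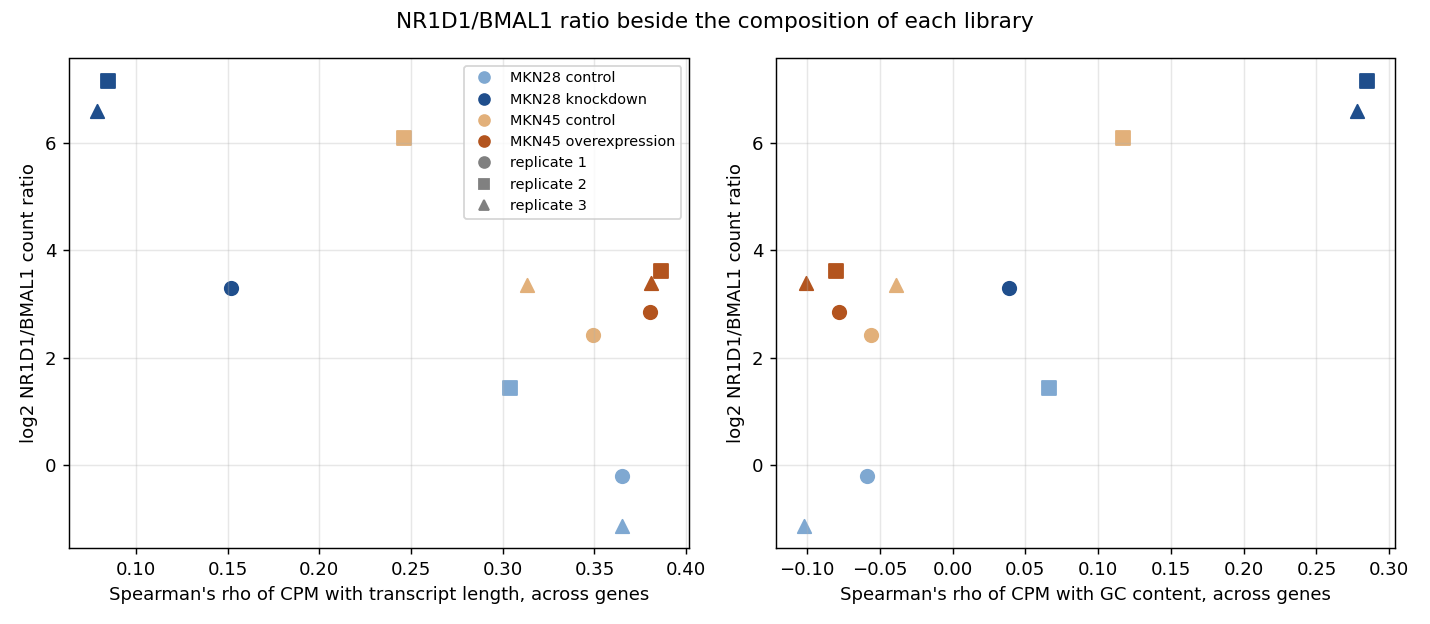
Log2 count ratio of NR1D1 to BMAL1 in each of 12 libraries (vertical axis) against Spearman's rho of CPM with transcript length (left) and with GC content (right), both across genes. Knockdown replicates 2 and 3 and MKN45 control replicate 2 lie highest, at 7.15, 6.58 and 6.08.

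The lines themselves differed in their clock genes. Of the 10 members, 6 passed between MKN45 and MKN28 controls, where 41.8% of 16088 genes did (21.4% higher and 20.4% lower in MKN45). Groups did not overlap at 7 members, 1 higher and 6 lower, and at 52.3% of all genes (26.9% higher, 25.4% lower). These control libraries also serve the comparisons above. PER3 differed most. It had 1178, 607 and 868 counts in MKN28 controls and 37, 9 and 11 in MKN45 controls. MKN45 thus held 2.4% of the MKN28 level (log2 fold change −5.35, SE 0.53, edgeR adjusted p = 8.39e-06). BMAL1 (−2.45, edgeR adjusted p = 0.00209), CLOCK (−1.94, adjusted p = 0.00965), NR1D2 (−1.37, adjusted p = 0.0173) and CRY1 (−1.03, adjusted p = 0.0482) were also lower in MKN45. PER2 was the member that was higher in MKN45 (1.17, edgeR adjusted p = 0.0205), with 573, 284 and 459 counts against 258, 158 and 263. CRY2 (−0.89, edgeR adjusted p = 0.0554) and NR1D1 (1.11, adjusted p = 0.103) did not pass. With the replicate number as a block they did (−0.87, edgeR adjusted p = 0.0122, and 1.21, adjusted p = 0.0105). Same-numbered controls deviated together at r = 0.439 for replicate 2, 0.243 for replicate 3 and 0.21 for replicate 1. Differently numbered controls reached 0.218, so that pairing is uncertain. CIPC and PER1 did not pass either way. CLOCK, BMAL1 and PER3 passed in all 14 alternatives. PER2 did not pass without MKN28 control replicate 1, MKN45 control replicate 1 or MKN45 control replicate 3, NR1D2 not without MKN28 control replicate 1, and CRY1 not without any 1 of 5 libraries, the exception being MKN28 control replicate 2. Without MKN28 control replicate 1 only 3 members passed, with 30.7% of all genes.

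Levels of different genes were compared as CPM per kb of the longest transcript. In MKN28 controls NR1D2 was highest at 11.6 ± 2.33 CPM per kb, followed by PER1, NR1D1, CRY2, CRY1, PER3, BMAL1 and CLOCK, with CIPC and PER2 last at 1.71 ± 0.812 and 1.502 ± 0.396. Each gene in this order overlapped the next. In the knockdown NR1D1, PER1 and CRY2 led at 47.7 ± 29.8, 47.0 ± 23.6 and 34.0 ± 8.08 CPM per kb, and CRY2 was separated from the next, CRY1, without overlap. CLOCK came last at 0.230 ± 0.157. MKN45 controls had NR1D1 at 20.7 ± 9.94 and PER1 at 13.4 ± 5.55 CPM per kb, clear of the other 8, while CLOCK, BMAL1 and PER3 lay below CIPC without overlap. In the overexpression libraries NR1D1 was again first at 28.2 ± 7.55 and PER3 last at 0.344 ± 0.0272 CPM per kb. CIPC, at 1.10 ± 0.255, lay below CLOCK and BMAL1 there and above them in MKN45 controls. CIPC was chosen on its fall in this comparison, and the differences of CLOCK and BMAL1 did not pass.

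**Figure D4:**
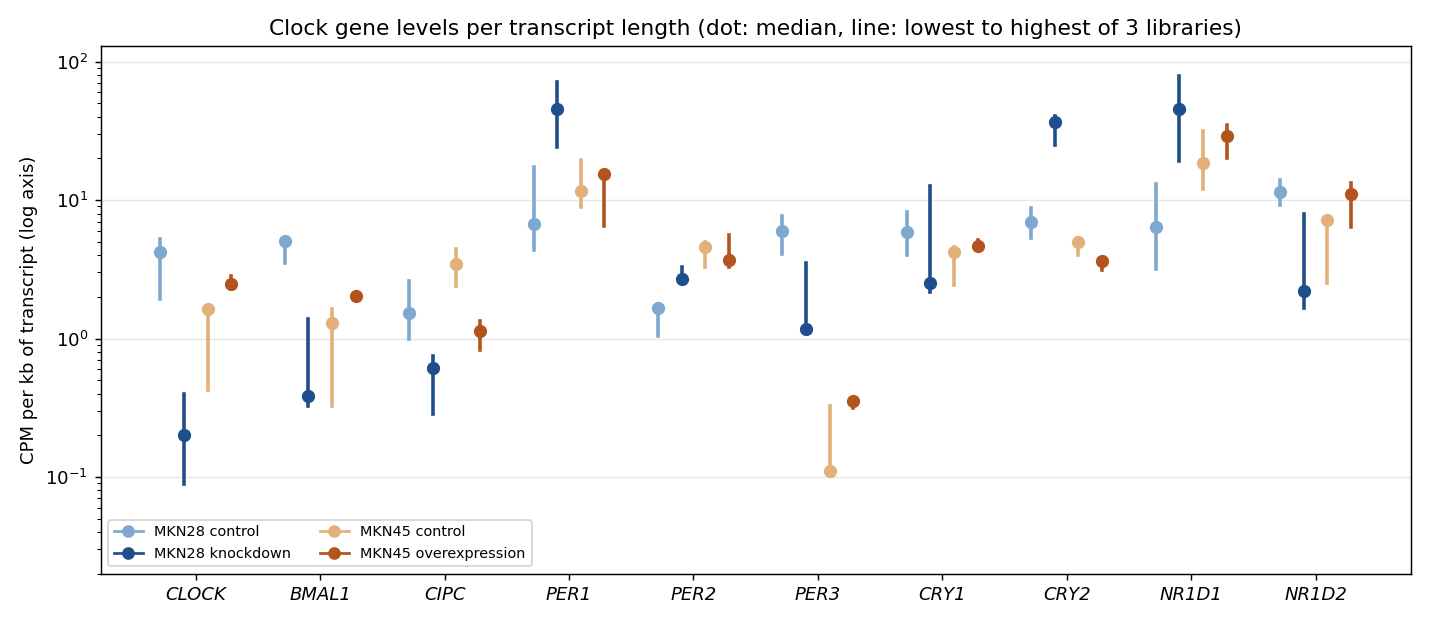
Level of each clock gene per kb of its longest transcript (CPM per kb, log axis, scaled within each cell line, so the lines are not on one scale) in the 4 groups. Dots are medians and lines run from the lowest to the highest of 3 libraries. PER3 lies below 1 CPM per kb in MKN45 only, and CLOCK has its lowest level in the MKN28 knockdown.

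A wider list of 41 clock genes, made up of paralogs, ROR activators, output genes, kinases, ubiquitin ligases and cofactors, was chosen with earlier results of these data known. In the knockdown 36 were tested, of which 4 rose, 11 fell and 21 did not pass, 41.7% passing as against 40.8% of all genes. The median was −0.67. CSNK1E, a casein kinase that marks PER proteins for destruction, rose by 2.21 on the log2 scale (SE 0.49). HDAC3, the deacetylase recruited by the REV-ERBs, rose by 1.98, SFPQ, a splicing factor found with PER, by 1.53, and WDR5, a subunit of histone methyltransferases, by 1.41. BMAL2, the paralog of BMAL1, had a log2 fold change of −3.49 (SE 0.91), and KMT2A, a histone methyltransferase that acts with CLOCK, one of −3.48. NCOR1, the corepressor that links HDAC3 to the REV-ERBs, was at −3.30, so the transcripts of HDAC3 and NCOR1 differed in direction in this fit. RORA, an activator of BMAL1 that competes with the REV-ERBs, was at −2.69, BTRC, a ubiquitin ligase subunit for PER, at −2.52 and SIRT1, a deacetylase, at −2.29. For these 10 genes the edgeR adjusted p lay between 0.00367 and 0.0361. All fold changes given for this list come from fits without removal of the length and GC trend. The part of composition in them was not tested.

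In the overexpression 0 of 37 tested genes of the list passed by edgeR, where 1.13% of all genes did. At an unadjusted p under 0.05 were 9 (24.3%, beside 26.8% of all genes). Between the lines 11 of 37 passed (29.7%, beside 41.8% of all genes). NPAS2, the paralog of CLOCK, was higher in MKN45 (log2 fold change 2.97), while RORA was lower (−4.37, edgeR adjusted p = 4.67e-06). The lower CLOCK of MKN45 thus stood beside a higher NPAS2, at 204 ± 49.7 CPM against 26.0 ± 4.47 in MKN28 controls. Lower in MKN45 were also CREBBP (−2.09), GSK3B (−1.63), EP300 (−1.62) and USP2 (−1.34). In the test of the line difference in the ZNF165 effect 7 of 37 passed (18.9%, beside 17.5% of all genes), among them NCOR1 (−2.75), KMT2A (−2.66) and SFPQ (2.45).

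Genes that share inducers with PER1 were counted separately, 8 that respond to cAMP and stress and 6 to glucocorticoids. In the knockdown 2 of 10 tested passed (20%, beside 40.8% of all genes), both as falls, FOS at −3.18 and KLF9 at −3.05 on the log2 scale, while PER1 rose. The list's median was 0.19, beside −0.20 for all genes. SIK1 (0.54, higher without overlap) and DUSP1 (0.95) did not pass, nor did NR4A3 (−1.21, lower without overlap) and SGK1 (−1.12). Groups did not overlap at 4 of the 10 genes, 1 higher and 3 lower. The same held for 53.8% of all genes, 23.5% higher and 30.3% lower. In the overexpression 3 of 12 rose (25%, beside 0.935% of all genes), NR4A2 (2.60), SGK1 (2.02) and EGR1 (1.90), where PER1 was at −0.11. PER1 itself did not pass in the overexpression, so no gene could pass together with it there. In the knockdown FKBP5, TSC22D3, ZBTB16 and ANGPTL4, all glucocorticoid genes, were not tested, at 11 counts or fewer per library. Whether PER1 shared an inducer with these genes was not tested.

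Over all 12 libraries, the profile nearest to each member was sought among 17265 genes by the root mean square (RMS) difference of centred log2 CPM. CRY1 was closest to PAK1IP1 (RMS 0.164), CRY2 to BID (0.167), BMAL1 to TMOD3 (0.193), CLOCK to MCM8 (0.211), PER2 to HERPUD2 (0.219) and NR1D2 to CDK17 (0.243). PER1 was closest to RPL10P6 (0.330), a pseudogene, NR1D1 to NAA80 (0.409), CIPC to GSEC (0.499) and PER3 to DSE (0.503). By this unscaled measure CIPC and PER3 lay furthest from their nearest gene. The measure can grow with the spread of a profile, and PER3 had the largest SD of the members (2.31). CIPC was chosen on its fall in the MKN45 libraries. The nearest other member was BMAL1 for NR1D2 (0.549) and PER1 for NR1D1 (0.639), both much further than the nearest gene overall. The likeness is a description of these libraries, which share their composition differences.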

How the data were processed

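The deposited table holds counts of reads as whole numbers, with a row for each Ensembl gene and a column for each library. Per the submitters' processing notes the authors used HISAT2 and StringTie. Versions, the genome build, the annotation, the counting step and how strand was handled were not given in the sources used here. Groups and replicate numbers came from the labels. Symbols were found for 49659 of 50868 identifiers. Lengths, GC content and GRCh38 coordinates came from GENCODE 29, which held 50111 of them.

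Each comparison was fitted with edgeR 4.0.16 (R 4.3.3): TMM factors, filterByExpr (minimum count 10, minimum total 15), the quasi-likelihood test and Benjamini-Hochberg adjustment over all genes tested. The knockdown, the overexpression and the control libraries of both lines were fitted on 6 libraries each, and the line difference in the ZNF165 effect on all 12. CPM values of ZNF165 and the members were scaled by the TMM factors within a line, and those of NPAS2 by the factors of the control fit. Floors and marker sums used library totals alone. Ratios used counts plus 0.5 and an exact permutation test (scipy 1.17.1). The length and GC trend was fitted per library with splines of 4 degrees of freedom, and TMM factors were then recomputed. That scaling was settled after results of earlier forms had been seen. DESeq2 1.42.0 was an alternative, and limma 3.58.1 was loaded with edgeR. Nearest profiles used log2 CPM with a prior count of 1.

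On simulated data with 200 changed genes, genes changed by 2 on the log2 scale were recovered in 100% (knockdown, overexpression, line) and 92% (line difference in the ZNF165 effect) of cases. At a change of 1 the shares were 50%, 44%, 61% and 13%. The simulation gave all genes the same fixed dispersion, not set from the spread of these libraries, and changed only well-counted genes. These shares are therefore not the power in these data. Replicate pairs differed by more than counting error (chi-square per degree of freedom 21.2 to 460), and floors of 3 counts cover counting error only. Deviations from the group means of same-numbered control libraries of both lines correlated at 0.21, 0.439 and 0.243. Differently numbered pairs ranged from −0.343 to 0.218, so replicate 2 lay well above them, replicate 3 just above and replicate 1 just below the highest. The block nevertheless treats all numbers as pairs. Named genes were the members, ZNF165, the genes of the wider clock list and of the signal list that passed without overlap and with a log2 change of 1 or more in size (up to 6 and 4 per direction), and the nearest profiles. Some genes that this rule names are not reported here. The members, lists and tests were chosen with earlier results of these data known.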

Additional observations from a re-analysis of the deposited data

Results flagged for a closer look

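In 3 members a test of the difference itself passed, between the overexpression in MKN45 and the knockdown in MKN28. Each line had 1 kind of manipulation, so line and manipulation cannot be told apart, and ZNF165 itself passed the same test (1.67, edgeR adjusted p = 0.0421). For CLOCK the effect in MKN45 minus that in MKN28 was −2.96 on the log2 scale (edgeR adjusted p = 0.0248), for CRY2 1.86 (adjusted p = 0.0200) and for NR1D1 3.11 (adjusted p = 0.0233). CLOCK passed in 11 of 21 alternatives, CRY2 in 13 and NR1D1 in 13. With the length and GC trend removed the differences were −1.28, 1.52 and 2.32, each still past the threshold (edgeR adjusted p = 0.0287, 0.00308 and 0.00541). Knockdown libraries differ from their controls in composition, and the part of that in these differences was not tested further.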

How the results depend on the processing

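In the knockdown 5 members passed in the reported fit (40.8% of all genes), 8 with DESeq2 (49%), 9 with all 12 libraries in 1 fit (50.6%), 3 without both knockdown replicates 2 and 3 (20%), and 3 to 8 over single libraries left out (17.3% to 65.9%). Between the lines 6 passed, and 3 to 7 with single libraries left out (30.7% to 44.6% of all genes). For the line difference in the ZNF165 effect 3 passed, 5 after removal of the length and GC trend (24.6% of all genes), 5 without control replicate 2 of both lines (22.8%), 0 without both knockdown replicates 2 and 3 (6.48%), and 0 to 6 with single libraries left out (6.51% to 46.1%). For this test of the line difference, the settings without control replicate 2 or without both knockdown replicates were chosen after seeing the data. In the overexpression 0 passed under each of 14 alternatives, but 1 to 12 genes in all passed in 4 of the 6 fits with a library left out, 8 with the block and 3 in the fit of all 12 libraries, and a 0 in those fits says nothing of stability. Ratios without overlap numbered 4 in the knockdown (4 to 7 with single libraries left out) and 1 in the overexpression (1 to 2). No share over other gene pairs was computed.

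With the replicate number as a block 7 members passed in the knockdown (46.8% of all genes) and 0 in the overexpression (0.0505%). Between the lines 8 passed (55.6%), and for the line difference in the ZNF165 effect 4 did (20.4%). Same-numbered libraries correlated at 0.232, 0.34 and −0.272 in the knockdown and at −0.055, −0.049 and 0.051 in the overexpression. Differently numbered pairs of the knockdown reached 0.398, so the numbers were not taken to pair libraries in these comparisons.

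Reversals were as follows, as log2 values, and the cause was not tested. In the knockdown CRY1, at −0.06 in the reported fit, was 0.019 with DESeq2, 1.30 with the length and GC trend removed, 1.26 with the replicate block added to that, and 1.10 without both knockdown replicates 2 and 3. With single libraries left out it ranged from −1.23 to 0.35. NR1D2 was 0.25 with the trend removed and 0.26 with the block added. In the overexpression PER1 was 0.069 and CRY1 −0.16 with the trend removed, CRY1 −0.16 with the block added, and PER1 0.028 and PER2 0.056 with library totals alone. With single libraries left out PER1 ranged from −0.34 to 0.27 and PER2 from −0.32 to 0.10. Between the lines PER1 ranged from −0.27 to 1.00 with single libraries left out. For the line difference in the ZNF165 effect PER3 was 0.22 and NR1D2 0.40 with the trend removed, 0.29 and 0.39 with the block added, and 0.14 and 0.29 without both knockdown replicates 2 and 3. There CRY1 was −0.18 with library totals alone and −0.12 without control replicate 2 of both lines, and with single libraries left out CRY1 ranged from −0.95 to 0.69 and PER3 from −1.39 to 0.084. Of the overexpression ratios, BMAL1 to CLOCK ranged from −0.106 to 0.037, NR1D1 to BMAL1 from −1.44 to 0.40, NR1D1 to NR1D2 from −1.02 to 0.47 and PER1 to PER2 from −0.46 to 0.41 with single libraries left out.

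Depth limits PER3 in MKN45, at 9 to 46 counts, and CLOCK in knockdown replicate 3, at 8 counts.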
